A study of Homo sapiens with 6 samples.

Results

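The genes described here are 39 integrins and adhesion adaptor proteins, of 29123 gene names printed on the array. They were chosen by gene name: 14 integrin α subunits, 8 integrin β subunits and 17 adhesion adaptors. Among the adaptors are proteins that join the integrin tail to the actin cytoskeleton, and scaffolds. Each gene was found under its own name on the array, by 70 probes in all, and is represented by the brightest of its probes, the one with the highest mean log2 intensity over the 6 arrays. Of the 19 genes with several probes, the others are given for the genes described in detail.

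Hic-5, encoded by TGFB1I1, is a focal adhesion scaffold of the paxillin family. Its expression was altered in a pair of established human ovarian adenocarcinoma cell lines. SKOV3 cells were transduced with lentiviral shRNAs against Hic-5 in the pLKO.1-puro vector and selected in puromycin, which gave stable clones named sh-S1 and sh-S2, and a clone carrying a scramble sequence in the same vector was the control (Ctrl). A2780s cells were stably transfected with pCMV-Hic-5 under neomycin, and a clone with the empty pCMV6 vector was their Ctrl. Each group is thus 1 clone, and a difference between clones of the same line cannot be told apart from the effect of the shRNA or the vector. RNA of sh-S1, of sh-S2 and of pCMV-Hic-5 was each hybridized with RNA of its Ctrl on 2 arrays with the dyes exchanged, which makes 4 arrays for SKOV3 and 2 for A2780s.

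Integrins are heterodimers of an α and a β subunit that bind extracellular matrix outside the cell. The β1 subunit pairs with many α subunits, among them the laminin-binding α3 and α6, the collagen-binding α1, α2, α10 and α11 and the fibronectin-binding α5, while αV pairs with β1, β3, β5, β6 and β8. Talins and kindlins bind the β tail and bring the receptor into its active state, the complex of ILK, PINCH and parvin assembles on it, and α-actinin, filamin, zyxin and tensins lead to actin. In epithelial cells kindlin-1 (FERMT1) is the characteristic kindlin, and kindlin-2 (FERMT2) is widespread, including in mesenchymal cells.

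All values are log2 ratios of clone over Ctrl unless a level is named. In SKOV3 a gene was called when limma's Benjamini-Hochberg adjusted p, over 25091 probes, was at most 0.05 and the change at least 2-fold. The test sets the 2 clone means against 0 and leaves out the spread of the Ctrl, a single RNA. In A2780s there is 1 pair of RNAs and no test, and a gene was called when the mean ratio was at least 1.5-fold with the same direction on both arrays. A probe entered when it was well above background in the Ctrl on every array of the line, or on both arrays of a modified clone. By this filter 34 of the 39 genes entered in SKOV3 and 32 in A2780s. ITGA10, ITGB6 and NEDD9 entered in neither line, ITGA8 and PARVB entered in A2780s alone, and ITGA3, ITGA4, ITGB4 and ITGB8 entered in SKOV3 alone.

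The targeted gene checks the labels. TGFB1I1 had log2 ratios of -0.16 and 0.12 in sh-S1 and of -0.12 and 0.28 in sh-S2, the clone in Cy5 first, so it was not lower in the RNAs labelled as Hic-5 knockdown (mean 0.03, limma's adjusted p = 0.855), and every direction given for these sh-labelled RNAs rests on their labels. In the RNA labelled pCMV-Hic-5 it was higher, at 4.05 and 2.60. The Cy5 channel was dim on the SKOV3 arrays, with a median signal above local background of 9.52 to 25.5 against 373 to 531 in Cy3. Over the probes that entered, arrays of one dye orientation resembled each other (Pearson's r across probes 0.892 for the clones in Cy5, 0.896 in Cy3) more than the dye-swapped arrays of one clone did (0.605 and 0.606). A pair of array ratios is given with the clone in Cy5 first, unless the dyes are named. The SKOV3 arrays share a slide and a scan, and the A2780s arrays share another.

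The cells were checked against markers of their labelled origin. Of 8 ovarian epithelial markers, 7 entered in SKOV3 and 5 were called lower in the sh-labelled RNAs: PAX8 at -3.58, KRT18 at -3.53, KRT19 at -2.55, KRT7 at -2.20 and KRT8 at -2.14. MUC1 and WT1 were at -0.0049 and -0.02, and EPCAM did not enter. In bulk RNA, fewer cells of a type and less RNA per cell cannot be told apart. The summed normalised intensity of these 8 probes was 51514 to 74221 in the SKOV3 Ctrl, 7236 to 10845 in the clones and 3132 in the A2780s Ctrl on the array where all 8 were measured. Summed leukocyte markers (5 probes) were at 1510 to 1662 in the SKOV3 Ctrl and 1496 to 1629 in the clones, and endothelial markers (3 probes) at 311 to 343 and 297 to 334, with PTPRC well above background in 2 of 4 Ctrl channels and PECAM1 in 1 of 4, PECAM1 in none of the clones. Platelet markers (3 probes) were at 867 to 1041 and 692 to 974. The lower epithelial markers run beside the integrin changes below, and their part in them was not tested.

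In the sh-labelled RNAs, 6 of the 34 genes that entered were called, 5 lower and 1 higher. The laminin-receptor subunits ITGA3 and ITGA6 and their partner ITGB1 fell 2.83-, 3.96- and 5.01-fold, kindlin-1 (FERMT1) fell 3.28-fold, α-parvin (PARVA) fell 2.59-fold, and kindlin-2 (FERMT2) rose 2.53-fold. The size of a change depended on the processing: the processed signals of the scanner software gave log2 ratios of -3.05 for ITGA6, -2.42 for ITGA3 and -2.47 for FERMT1, against -1.98, -1.502 and -1.71 here, and called 10 of the genes. Of all probes that entered, 4.21% were called lower and 3.01% higher. Another 7 genes were below 0 and 1 above it with limma's adjusted p at most 0.05 but short of 2-fold. Of all 25091 probes, 2968 were below 0 and 3110 above it in the same way. The median over the 34 genes was -0.17, against 0.0017 over all probes. Of the 34 means 26 were below 0, against 12479 of 25091 over all probes. Ratios had one direction on all 4 arrays for 19 of the 33 genes measured on all of them, and for 38.0% of all probes.

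**Figure D1:**
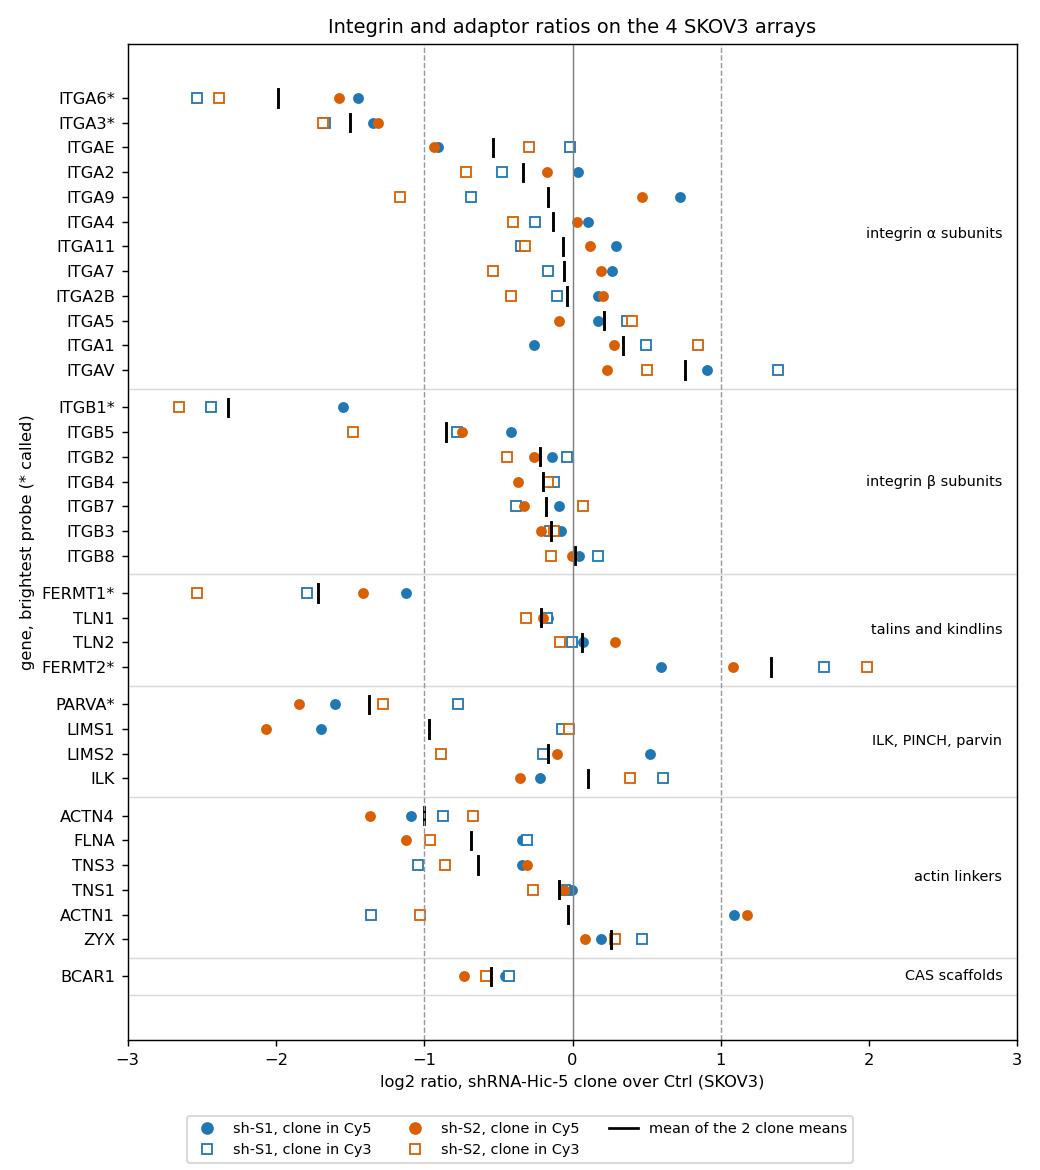
Log2 ratio of shRNA-Hic-5 clone over Ctrl (x axis) for the 34 genes that entered in SKOV3, by role; circles are arrays with the clone in Cy5, squares arrays with it in Cy3, vertical bars the mean of the clone means, dashed lines 2-fold, and asterisks the called genes. ITGA6, ITGA3, ITGB1, FERMT1 and PARVA lie left of 0 on every array that measured them, FERMT2 lies right of 0 on every array, and ACTN1 is split by dye, from -1.36 to 1.18.

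Promoter sequences are shown for ITGB1 and ITGA6, the called subunits that pair with each other, and for FERMT2, the called gene of opposite direction, at the first start that RefSeq lists for each gene (build GRCh38.p14, a window of 300 bases that runs from upstream to just past the start, 5′ to 3′ on the gene's strand). Capitals mark the GC box GGGCGG on either strand, where adjacent boxes share letters. RefSeq promoters matched 31 of the 39 genes; those of ITGA3, ITGA7, ITGA9, ITGB2, ITGB3, ITGB4, PARVA and FERMT1 were not among them. A match describes the letters and no binding.
ITGB1 (chr10:32958181-32958480, minus strand): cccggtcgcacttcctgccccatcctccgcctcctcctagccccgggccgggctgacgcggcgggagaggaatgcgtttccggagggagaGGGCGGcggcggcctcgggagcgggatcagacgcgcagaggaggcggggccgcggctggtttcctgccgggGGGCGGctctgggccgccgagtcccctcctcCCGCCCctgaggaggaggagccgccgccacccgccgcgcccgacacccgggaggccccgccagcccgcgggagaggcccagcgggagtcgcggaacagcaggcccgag
ITGA6 (chr2:172427086-172427385, plus strand): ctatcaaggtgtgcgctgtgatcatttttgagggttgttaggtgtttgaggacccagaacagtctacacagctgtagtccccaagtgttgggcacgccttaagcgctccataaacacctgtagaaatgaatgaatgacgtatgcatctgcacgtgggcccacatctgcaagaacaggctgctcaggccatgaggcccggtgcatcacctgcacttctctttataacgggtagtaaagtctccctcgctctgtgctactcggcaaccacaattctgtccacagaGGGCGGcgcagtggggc
FERMT2 (chr14:52951001-52951300, minus strand): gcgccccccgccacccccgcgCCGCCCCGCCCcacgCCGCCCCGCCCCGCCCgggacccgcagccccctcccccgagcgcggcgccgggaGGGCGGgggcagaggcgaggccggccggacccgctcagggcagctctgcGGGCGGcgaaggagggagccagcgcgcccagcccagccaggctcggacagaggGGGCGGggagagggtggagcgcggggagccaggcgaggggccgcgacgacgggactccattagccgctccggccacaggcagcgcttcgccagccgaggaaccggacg

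The GC box occurred 3 times in the ITGB1 promoter, once in that of ITGA6 and 8 times in that of FERMT2, and in 45.0% of 35116 RefSeq promoters. ITGA6 also held 2 matches to the E-box CACCTG, which the other 2 promoters lacked and which 20.6% of all promoters held. The AP-1 letters TGANTCA were in none of the 3, and in 7.7% of all promoters. Base composition went with these counts, with 78.3% G and C for ITGB1, 53.0% for ITGA6 and 82.0% for FERMT2. These counts depend on the start. The next start listed for ITGA6, not printed, held 3 GC boxes and no E-box, at 72.0% G and C, and that for ITGB1 held none of the 3 motifs, at 40.7%.

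Among the α subunits, 2 of the 12 that entered were called lower and none higher, where 4.21% and 3.01% of all probes were. The probe of ITGA6, the α6 subunit of the laminin receptors α6β1 and α6β4, lies at chr2:173370556-173370615 (hg19, the build of the scanner files, plus strand, in the transcript NM_000210). The ITGA6 ratios of sh-S1 were -1.45 in Cy5 and -2.53 on the dye-swapped array. Those of sh-S2 were -1.57 and -2.39. All 4 arrays put ITGA6 more than 2-fold below Ctrl, and the clone means were almost the same (mean -1.98 ± 0.01, SD, n = 2 clones; limma's adjusted p = 2.78e-05). In normalised log2 intensity, the level of ITGA6 was 11.18 and 11.09 in Cy3 and 10.69 and 10.53 in Cy5 in the Ctrl, against 8.16 and 8.14 in Cy3 and 9.73 and 9.51 in Cy5 in the clones, so the groups did not overlap in either dye.

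ITGA3, the α3 subunit that pairs with β1, is measured at chr17:48167365-48167424 (hg19, plus strand). Its ratios were -1.35 and -1.67 in sh-S1 and -1.31 and -1.68 in sh-S2, the clone in Cy5 first. They spanned less than those of ITGA6 between the dye orientations (mean -1.502 ± 0.01, SD, n = 2 clones; limma's adjusted p = 8.80e-05). The level of ITGA3 was 10.46 to 10.67 in Cy3 and 9.76 to 9.97 in Cy5 in the Ctrl, and 8.08 to 8.30 in Cy3 and 9.15 to 9.32 in Cy5 in the clones.

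ITGAV, the αV subunit of the vitronectin receptors, was the α subunit with the highest mean. Its ratios were 0.91 and 1.38 in sh-S1 and 0.23 and 0.50 in sh-S2. All 4 were above 0 and those of sh-S1 lay above those of sh-S2 in each dye (mean 0.76 ± 0.55, SD, n = 2 clones; limma's adjusted p = 0.0204). The mean is 1.69-fold, short of the threshold, and a second probe, too dim to enter, was at 0.24. ITGAE, which pairs with β7 to bind E-cadherin, had a mean of -0.54 (limma's adjusted p = 0.00707), with -0.91 and -0.94 with the clones in Cy5 but -0.02 and -0.29 in Cy3. The other 8 subunits that entered had means from -0.33 (ITGA2, the collagen-binding α2) to 0.34 (ITGA1, the collagen-binding α1), none past either threshold. ITGA5, the fibronectin-receptor subunit, was at 0.21. ITGA9 went opposite ways by dye, with 0.73 and 0.47 in Cy5 and -0.68 and -1.17 in Cy3.

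Among the β subunits, 1 of the 7 that entered was called lower, where 4.21% of all probes were. ITGB1, the partner of ITGA3 and ITGA6, is measured by 3 probes, at chr10:33189443-33189502, chr10:33197399-33197458 and chr10:33200507-33200566 (hg19, minus strand). The brightest probe had ratios of -1.55 (Cy5) and -2.44 (Cy3) in sh-S1, and of -2.66 (Cy3) in sh-S2. Its spot on the array with sh-S2 in Cy5 carried an outlier flag and was left out, so the sh-S2 mean rests on 1 array and dye (mean -2.32 ± 0.47, SD, n = 2 clones; limma's adjusted p = 0.000137). The other probes were complete on all 4 arrays. The second had -2.50 and -1.08 in sh-S1 and -2.62 and -1.20 in sh-S2 (mean -1.85 ± 0.09, SD, n = 2 clones; limma's adjusted p = 4.25e-05). The third had -1.86 and -1.16 in sh-S1 and -1.95 and -1.37 in sh-S2 (mean -1.59 ± 0.10, SD, n = 2 clones; limma's adjusted p = 8.56e-05). Every measured ratio of the 3 probes was below -1, although the brightest probe was lower with the clone in Cy3 and the others with the clone in Cy5.

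**Figure D2:**
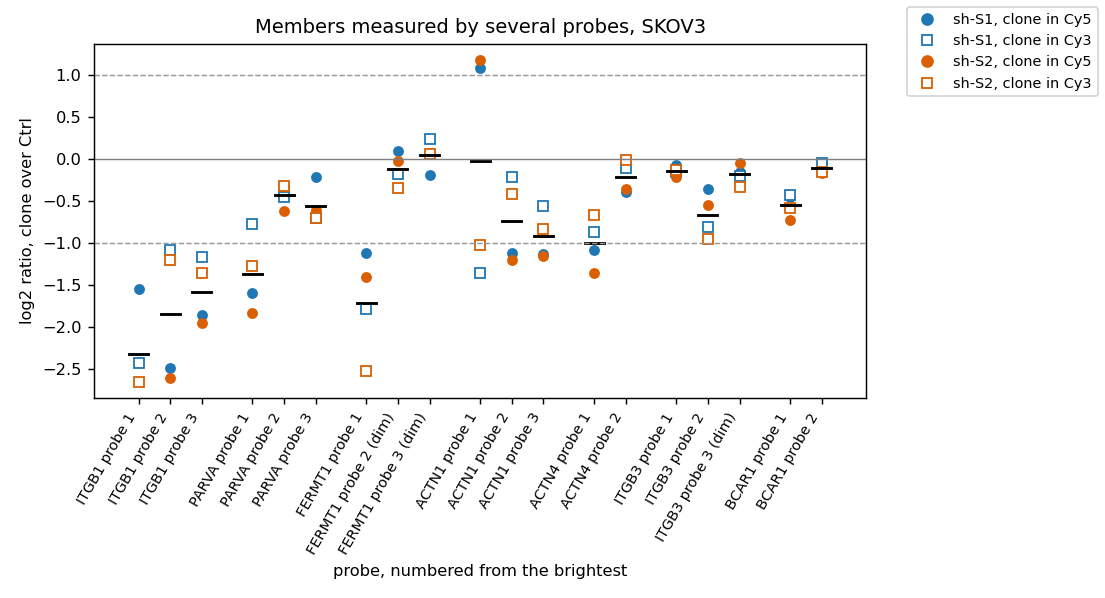
Log2 ratio of clone over Ctrl in SKOV3 (y axis) for each probe of 7 genes with several probes, numbered from the brightest; symbols are as in the plot of all genes, horizontal bars are means, dashed lines 2-fold, and "dim" marks probes that did not enter. The 3 ITGB1 probes lie below -1 on every array that measured them, while only the brightest PARVA probe does so in its mean, at -1.37, and the ACTN1 probes disagree.

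ITGB5, which pairs with αV to bind vitronectin, was next, with -0.42 and -0.78 in sh-S1 and -0.75 and -1.48 in sh-S2. All 4 arrays were below 0, and sh-S2 was lower than sh-S1 in each dye (mean -0.86 ± 0.36, SD, n = 2 clones; limma's adjusted p = 0.00433), 1.81-fold. ITGB2, ITGB3, ITGB4, ITGB7 and ITGB8 had means from -0.22 to 0.02 and passed neither threshold. A second, dimmer probe of ITGB3, the β3 subunit of the vitronectin and platelet receptors, was at -0.67, against -0.14 for the brightest, also short of 2-fold. Both of these probes entered through the Ctrl alone, and were well above background on only 1 array of each clone. A lower ratio for them is therefore favoured by the filter. ITGB4, the partner of α6 in hemidesmosomes, was at -0.20 and was above background in every SKOV3 channel.

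The kindlins changed in opposite directions and the talins did not pass the test. FERMT1 (chr20:6055830-6055889, hg19, minus strand) had -1.12 and -1.79 in sh-S1 and -1.41 and -2.53 in sh-S2. All 4 arrays put it more than 2-fold below Ctrl (mean -1.71 ± 0.36, SD, n = 2 clones; limma's adjusted p = 0.000246). Its other 2 probes were too dim to enter, with means of -0.12 and 0.04. FERMT2 (chr14:53325183-53325242, hg19, minus strand) had 0.60 and 1.70 in sh-S1 and 1.08 and 1.99 in sh-S2 (mean 1.34 ± 0.27, SD, n = 2 clones; limma's adjusted p = 0.000399). It was above Ctrl on all 4 arrays and short of 2-fold only on the array with sh-S1 in Cy5; on the arrays with the clones in Cy5 alone its mean was 0.84, which ends the call. TLN1 was at -0.21 and TLN2 at 0.07.

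Of the genes of the ILK, PINCH and parvin complex, 1 of the 4 that entered was called lower, where 4.21% of all probes were. PARVA, which joins ILK to actin, had -1.60 and -0.77 in sh-S1 and -1.84 and -1.28 in sh-S2 on its brightest probe, at chr11:12551259-12551318 (hg19, plus strand). All 4 arrays were below 0 (mean -1.37 ± 0.26, SD, n = 2 clones; limma's adjusted p = 0.000338). The other 2 PARVA probes, at chr11:12556812-12556871 and chr11:12549409-12549468, were at -0.43 and -0.56, also below 0 on every array but short of 2-fold, and the mean over the 3 probes was -0.79. LIMS1, which encodes PINCH-1 and has near-identical copies in the genome that its probe may also detect, was decided by the dye. It had -1.70 and -2.07 with the clones in Cy5 and -0.07 and -0.03 with the clones in Cy3 (mean -0.97 ± 0.11, SD, n = 2 clones; limma's adjusted p = 0.000658), 1.95-fold. ILK itself was at 0.11, with negative ratios in Cy5 and positive ones in Cy3 on both of its probes, and LIMS2 was at -0.17.

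None of the 6 actin linkers was called by limma, with 4 of 6 at an unadjusted p under 0.05. The share of all probes under that unadjusted p was not counted. By limma's adjusted p at most 0.05, 3 of the 6 were below 0 but short of 2-fold, as were 2968 of all 25091 probes. ACTN4, the α-actinin-4 crosslinker, came closest. It had -1.09 and -0.87 in sh-S1 and -1.36 and -0.67 in sh-S2 (mean -0.999 ± 0.025, SD, n = 2 clones; limma's adjusted p = 0.000464), 1.9987-fold and thus just under the threshold. Its other probe was at -0.22 (limma's adjusted p = 0.134), and the mean over both probes was -0.61. FLNA, the filamin that crosslinks actin and binds β tails, had -0.34 and -0.31 in sh-S1 and -1.12 and -0.96 in sh-S2 (mean -0.68 ± 0.51, SD, n = 2 clones; limma's adjusted p = 0.0239). The FLNA ratios of sh-S2 lay below those of sh-S1 in both dyes. TNS3, a tensin, had -0.34 and -1.04 in sh-S1 and -0.31 and -0.86 in sh-S2 (mean -0.64 ± 0.08, SD, n = 2 clones; limma's adjusted p = 0.00324). Its other probe, too dim to enter, was at -0.04. ZYX was at 0.26 and TNS1 at -0.09, neither past a threshold.

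ACTN1, the α-actinin-1 crosslinker, was measured at odds by its probes. The brightest probe (chr14:69353974-69354033, hg19, minus strand) had 1.09 and 1.18 with the clones in Cy5 and -1.36 and -1.03 with the clones in Cy3, with a mean of -0.03. The other 2 probes were below 0 on all 4 arrays, with means of -0.74 and -0.92 (limma's adjusted p = 0.00191 and 0.000778). Neither reached 2-fold. Of the CAS scaffolds, BCAR1 (p130Cas) had a mean of -0.55 (limma's adjusted p = 0.00789), and its dimmer probe was at -0.10.

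**Figure D3:**
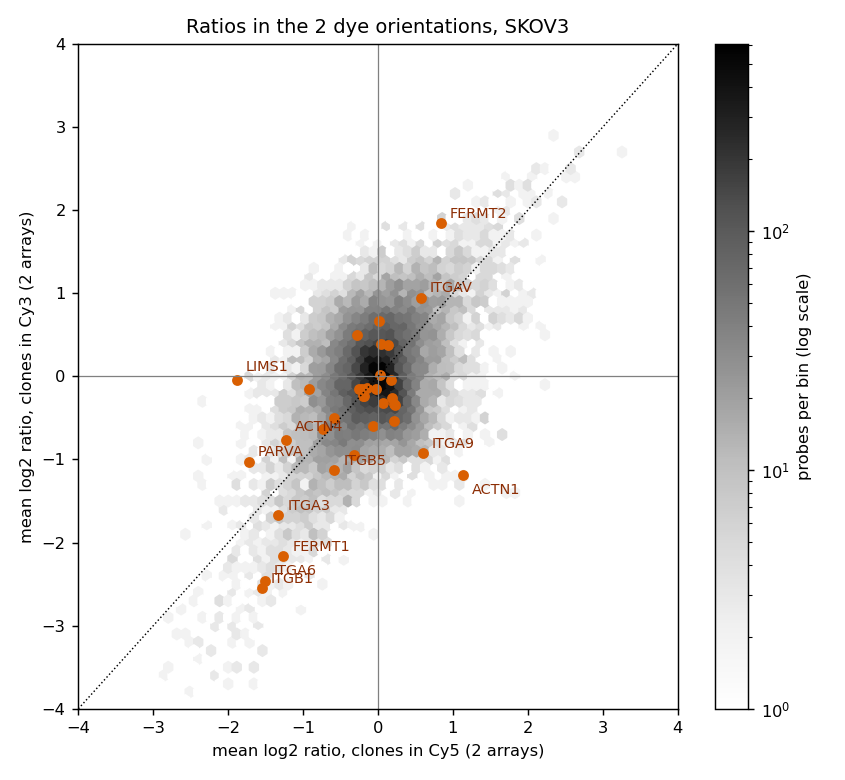
Mean log2 ratio of the 2 SKOV3 arrays with the clones in Cy3 (y axis) against that with the clones in Cy5 (x axis); grey hexagons count all probes that entered on a log scale, orange points are the 34 genes, and the dotted line is equality. FERMT1, ITGA6, ITGB1 and FERMT2 lie farther from 0 in Cy3 than in Cy5. The Cy5 value of ITGB1 is the array of sh-S1 alone, and its other probes lay farther from 0 in Cy5. LIMS1 (-1.88 in Cy5, -0.05 in Cy3) lies on the horizontal axis, and ACTN1 (1.13, -1.19) lies in the quadrant of opposite signs.

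The clones were compared with each other through their shared Ctrl, as sh-S2 minus sh-S1 in the same dye orientation, with no test since each clone is 1 RNA. Of the 33 genes measured on all 4 arrays, 3 differed by at least 1.5-fold on average with one direction in both dyes, all lower in sh-S2, where 3.07% of all probes did so in either direction. The differences were -0.67 and -0.88 for ITGAV, -0.63 and -0.68 for LIMS2 and -0.79 and -0.65 for FLNA, Cy5 first. ITGA3 and ITGA6 differed by at most 0.14 between the clones in either dye.

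The other genes of the pathway were taken from lists, which were chosen with earlier results of these data known. Of 15 integrin regulators, all of which entered in SKOV3, 2 were called lower and 1 higher. Over all probes that entered, 4.21% were called lower and 3.01% higher. The median of the 15 was -0.52, against 0.0017 over all probes. CD47, the integrin-associated protein, was at -1.53 and KANK2, which binds talin, at -1.13, while RSU1, a partner of PINCH-1, was at 1.32. Another 7 of them were below 0 with an adjusted p at most 0.05 but short of 2-fold, as were 2968 of all 25091 probes. Of 20 focal adhesion partners, 19 entered and 2 were called lower, where 4.21% of all probes were. The 2 were CAV1, the coat protein of caveolae, at -3.74 and LASP1, an actin-binding adaptor, at -1.08. The median of the 19 was 0.08, against 0.0017 over all probes. Of 7 genes of leukocyte integrins and their adaptors, 3 entered and none was called by limma, with 0 of 3 at an unadjusted p under 0.05.

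In A2780s cells with pCMV-Hic-5, 2 of the 32 genes that entered were lower and none higher, where 1.32% of all probes were lower and 3.26% higher by the same rule. The 2 genes were ITGB1 and PARVA, both also called lower in the sh-labelled RNAs, with no shared control between the lines. The brightest ITGB1 probe was at -0.97 (clone in Cy5) and -0.39 (Cy3), a mean of -0.68 or 1.61-fold. Its other probes were below 0 on both arrays, with means of -0.53 and -0.45, short of 1.5-fold. PARVA was at -0.80 and -0.44, a mean of -0.62 or 1.54-fold, and its other probes were at -0.38 and -0.10, short of 1.5-fold. The mean over the probes of a gene left neither past the rule, nor did the Cy3 ratios by themselves, and PARVA was also lost, at -0.55, with normexp fitted on all spots. The values come from 1 pair of RNAs, and the 2 arrays give no replicate of the clone.

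The remaining genes in A2780s moved little, and the median of the 32 genes was 0.0002 against -0.0073 over all probes. FLNA was at 0.63 and 0.27 (mean 0.45), the highest mean of the 32 and past 1.5-fold by its Cy5 ratio, where it was below 0 in the sh-labelled RNAs. ITGB2 had a mean of -0.42 and ITGA1 of -0.37, short of 1.5-fold. ITGA6 was at -0.13 and 0.12, and FERMT1 at -0.30 and 0.06, without a common direction. FERMT2 was at 0.54 and -0.07, split by dye. Of the epithelial markers, 5 entered in A2780s and 1 was past the rule, KRT18 (0.54 and 0.65), while PAX8 was at -0.18, EPCAM at 0.04, KRT8 at 0.10 and MUC1 at 0.25. Their part in these values was not tested. Of the integrin regulators, RAP1A (-0.62) and KANK1 (-0.60) were lower by the rule, and of the focal adhesion partners TGFB1I1 itself and SORBS3 (0.64) were higher.

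**Figure D4:**
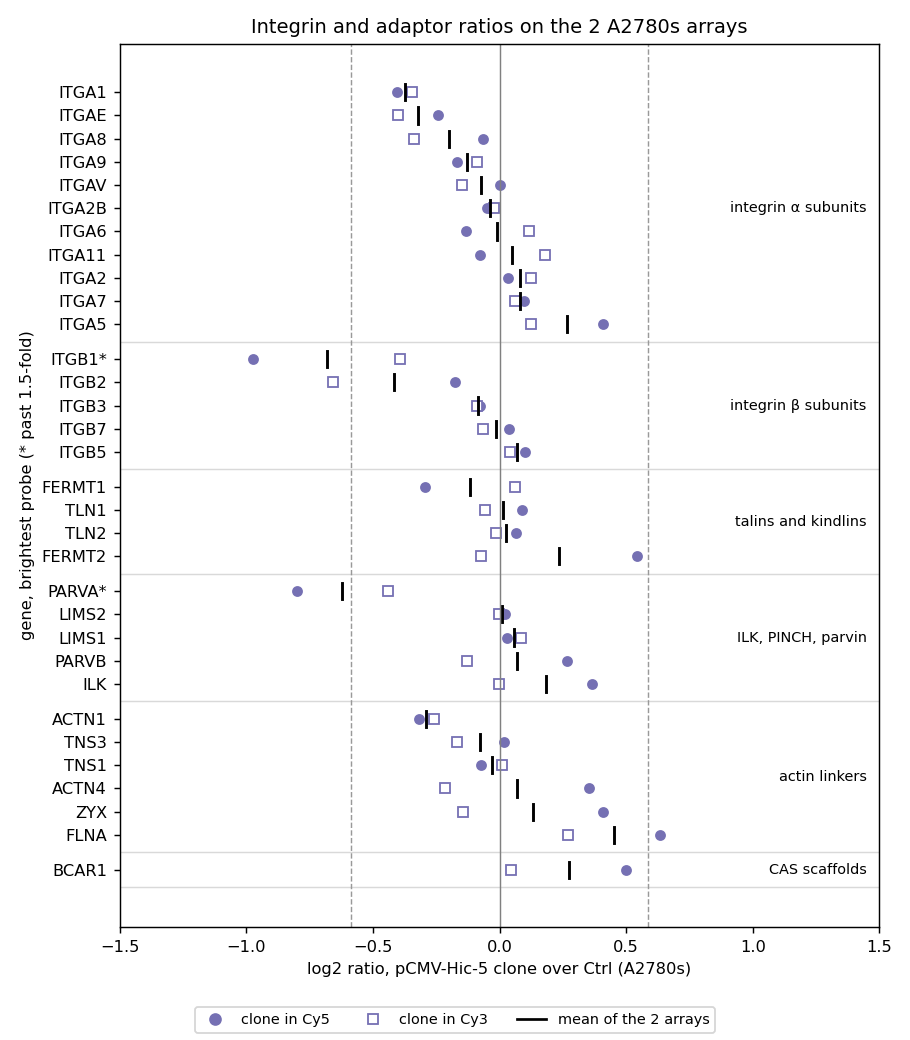
Log2 ratio of pCMV-Hic-5 clone over Ctrl (x axis) for the 32 genes that entered in A2780s; circles have the clone in Cy5, squares in Cy3, bars are the mean of the 2 arrays, dashed lines 1.5-fold, and asterisks the genes past the rule. ITGB1 and PARVA lie left of 0 on both arrays, and FLNA has the highest mean, at 0.45.

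The unmodified levels of the genes were set side by side between the Ctrl clones of the lines, probe by probe and dye by dye. Cell line, slide and scan cannot be told apart here, and there is no test. Of 34 genes that entered, 7 were at least 2-fold higher in the SKOV3 Ctrl in both dyes and 2 lower, where 5.74% of all probes were higher and 5.41% lower. Differences in log2 level of SKOV3 Ctrl minus A2780s Ctrl, Cy3 first, were 3.81 and 3.23 for ITGA3, whose A2780s Ctrl was well above background in Cy5 but not in Cy3, and 3.50 and 3.33 for FERMT1. They were 2.32 and 2.01 for ITGA6, 1.95 and 2.12 for ITGB5, 2.53 and 1.69 for ACTN4, 2.35 and 1.75 for FLNA and 1.13 and 2.29 for ITGA9. FERMT2 and ITGA1 were lower in SKOV3, by -1.57 and -2.21 and by -1.18 and -1.27.

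ITGB1 was at 16.4 in Cy3 and 17.2 in Cy5 in the SKOV3 Ctrl, at 14.8 and 14.9 in sh-S1 and at 15.5 and 14.7 in the A2780s Ctrl, so its difference between the Ctrl clones was 0.98 in Cy3 and 2.52 in Cy5. The FERMT2 level was 9.91 to 9.96 in Cy3 and 9.80 to 9.85 in Cy5 in the SKOV3 Ctrl. In sh-S1 and sh-S2 it was 11.55 and 11.79 in Cy3 and 10.56 and 10.996 in Cy5, and in the A2780s Ctrl it was 11.51 in Cy3 and 12.04 in Cy5. FERMT1 was at 10.9 in both Cy3 channels of the SKOV3 Ctrl, at 8.55 and 8.00 in Cy3 in sh-S1 and sh-S2 and at 7.37 in the A2780s Ctrl. In Cy5 it was at 10.35 and 10.53 in the SKOV3 Ctrl, at 9.74 in sh-S1, at 9.46 in sh-S2 and at 7.11 in the A2780s Ctrl. Both comparisons, of the sh-labelled RNAs and of the A2780s Ctrl, share the SKOV3 Ctrl.

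**Figure D5:**
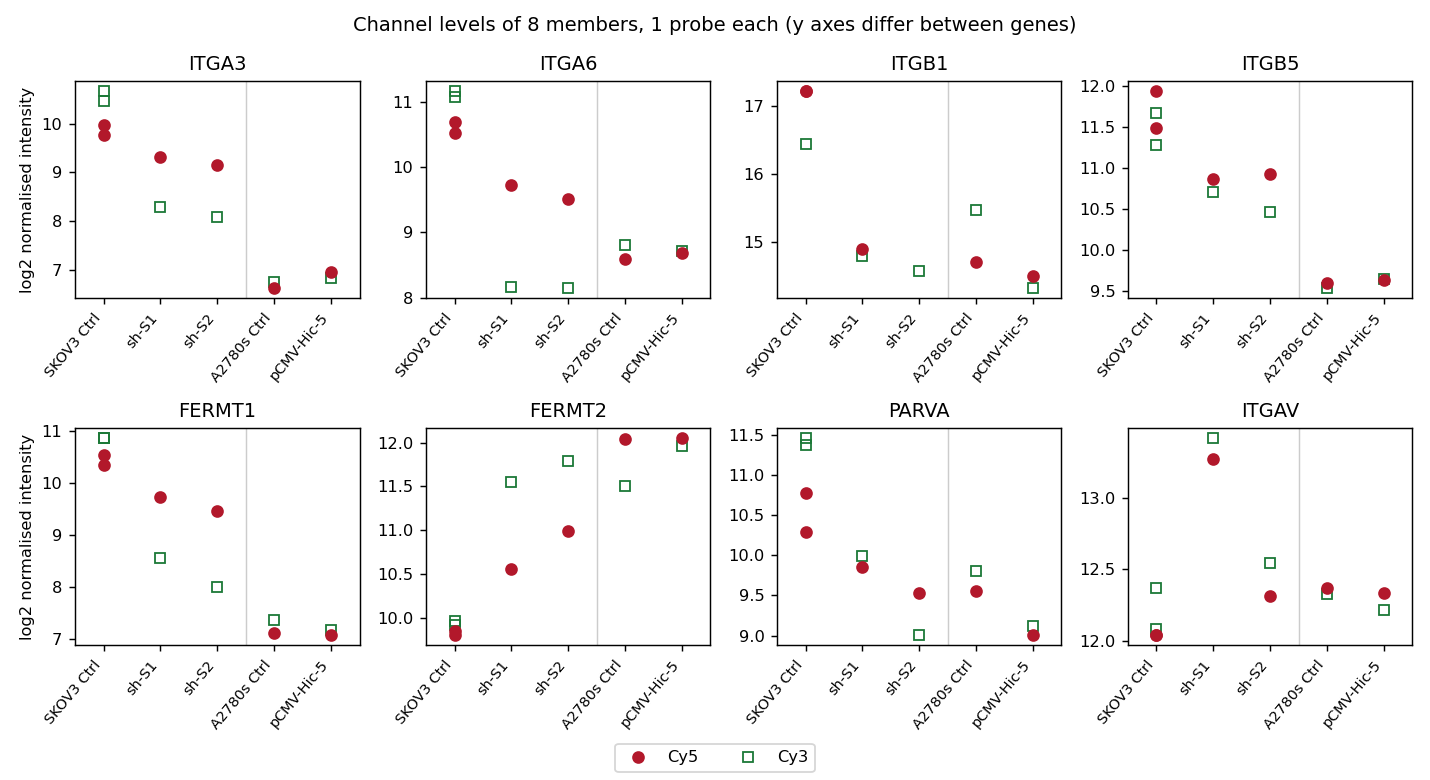
Normalised log2 intensity (y axis, its range set per gene) of 8 genes, 1 probe each, in each RNA; filled red circles are Cy5 channels and open green squares Cy3 channels, 4 for the SKOV3 Ctrl and 2 for each other RNA, with 1 array left out for ITGB1. ITGA3, ITGA6, ITGB1 and FERMT1 are higher in the SKOV3 Ctrl than in sh-S1 and sh-S2 in both dyes and FERMT2 is lower, from 9.80 to 9.96 in the Ctrl.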

How the data were processed

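Dual-colour Agilent Whole Human Genome arrays, 6 in all, were read for total RNA of cell line clones, and the labels gave the RNA of each dye. The authors deposited spot intensities as written by Agilent Feature Extraction (8.5.1.1 per the submitters' processing notes, 10.7.3.1 per the file headers), not normalized between arrays, with processed intensities and log10 ratios of Cy5 over Cy3 from the same software. The deposited series table holds the same log10 ratios to 3 digits on all 45015 spots of each array and was used as a check only.

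Median local background was subtracted from the mean signal, normexp (offset 50, fitted without spots flagged for background) and loess within each array followed, and 1639 control spots were left out. Outlier spots (121 to 362 an array) and 39 spots with a local background over 1000 on 1 A2780s array were left out. Spots of a probe were averaged, and ratios were turned to clone over Ctrl (log2). The pair of dye-swapped arrays was averaged per clone before lmFit and eBayes (limma 3.58.1, R 4.3.3; prior degrees of freedom 5.38). Where 1 array of a pair was left out, the other stands for the clone. Channel levels followed Aquantile scaling between arrays. No probe of the 39 genes was saturated. Their probes number 70 on the array, and the precision is limited by how few arrays there are. The fit was tested on simulated data.

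The genes with array values are those called in either line, or with one direction on all SKOV3 arrays and a mean of at least 1.5-fold. Of the others, ITGAE, ITGA9, ACTN1 and ITGB8, and FLNA, ITGA6, FERMT1 and FERMT2 in A2780s, were chosen after their values were seen. Members and lists were chosen with earlier results of these data known. Replicates are 2 SKOV3 clones set against 1 Ctrl RNA, and 1 pair of RNAs in A2780s, so p-values speak for these samples only. They weigh the spread between the 2 clone means with a variance that limma takes from all probes that entered. For ITGA6 the SD of the clone means was 0.0057, and the standard error in the test was 0.0925.

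Alternatives were the processed intensities, normexp fitted on all spots, each dye orientation alone, no filter on dim probes, the mean over the probes of a gene, each clone left out, a fit of 4 arrays with dye as covariate and clone as random block, and quantile scaling of the channels. The clone correlation of that fit (0.26) was computed from mean squares between and within clones, because duplicateCorrelation returned no value.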

Additional observations from a re-analysis of the deposited data

Results flagged for a closer look

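ITGB8, the β8 subunit that pairs with αV, had ratios of opposite sign in the SKOV3 clones on the brightest of its 4 probes. They were above 0 on both arrays of sh-S1 (0.04 and 0.17) and below 0 on both arrays of sh-S2 (-0.0006 and -0.14). The difference between the clone means was -0.18. It was not tested, and the values of this probe lie close to 0. The other ITGB8 probes, too dim to enter, had means of -0.42, 0.05 and -0.07, the first of them below 0 on all 4 arrays.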

How the results depend on the processing

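No further pairing entered the fit, since each ratio already sets clone and Ctrl on 1 array and the dye-swapped arrays were averaged per clone. The slide could not enter as a block, since each line has a slide of its own. Of the 6 genes called in SKOV3, the processed signals of Feature Extraction kept all 6 and added ACTN4, ITGA2, LIMS1 and TNS3, which gave 10 called genes (1 higher, 9 lower), while they called 1979 probes higher and 2372 lower over the whole array against 755 and 1057. Counts on a single clone, by fold and direction with no test, ranged from 7 (without sh-S2) to 10 (without sh-S1). With the clones in Cy5 alone 7 genes were called, without FERMT2 and with ACTN1, ACTN4 and LIMS1 (ITGB1 was not measured there). With the clones in Cy3 alone 8 were called, with ACTN1 and ITGB5 added to all 6. The calls of ACTN1 were in opposite directions, higher in Cy5 (1.13) and lower in Cy3 (-1.19). The fit of 4 arrays with a block called 5, since the ITGB1 probe lacks an array, and the mean over the probes of a gene called 5, without PARVA (-0.79, limma's adjusted p = 0.00154). In A2780s, where 2 genes were past the rule, normexp fitted on all spots left 1 (ITGB1, with PARVA at -0.55), the array with the clone in Cy3 left 1 (ITGB2 in place of ITGB1 and PARVA), the array with the clone in Cy5 gave 3 (FLNA, higher, with ITGB1 and PARVA), and the mean over probes left 0 (ITGB1 at -0.56, PARVA at -0.36). On the processed signals 6 genes in place of 3 differed between the clones, with ITGA1, ITGB2 and PARVA added. Quantile scaling gave 10 genes in place of 9 for the Ctrl levels. The 12 genes followed in SKOV3 and the 2 in A2780s kept their direction under every alternative that gave them a value. ITGA6 ranged from -3.05 to -1.51, ITGA3 from -2.42 to -1.33, ITGB1 from -2.66 to -1.92, FERMT1 from -2.47 to -1.27, PARVA from -1.89 to -0.79 and FERMT2 from 0.84 to 1.84. The weak Cy5 signal on the SKOV3 arrays limits every ratio of a dim gene there.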
